A study of Mus musculus with 24 samples.

Results

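The genes of the interneuron lineage and of neuroblasts described here were Dlx1, Dlx2, Dlx5, Dlx6, Gad1, Gad2, Sp8, Sp9 and Dcx, 9 of the 49671 genes counted in the series. They were chosen by name, with their levels in these 24 libraries already known, so their levels and fold changes are given as a description and without p-values. Inhibitory interneurons of the cortex and the olfactory bulb arise from progenitors of the ventral forebrain, where homeodomain factors of the Dlx family switch on the enzymes that make the transmitter GABA. The Dlx genes lie in pairs on the chromosome, and the 2 genes of a pair are often expressed in the same cells. In the brain after birth the same factors, together with Sp8 and Sp9, mark neuroblasts that leave the subventricular zone for the olfactory bulb, and Dcx encodes a microtubule-associated protein of migrating young neurons.

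RNA-seq was done on 6 groups of mouse cells with 4 biological replicates each. Neural stem cells (NSC) came from 1 C57BL/6N embryonic stem cell line, GSC-5003, were grown with FGF and EGF and were taken at passages 50 to 60. The astrocytes derived from that line, called AGES, were these NSCs after 20 ng/ml BMP4 for 3 to 5 days. Per the methods, NSCs were kept on gelatin, and AGES on poly-L-ornithine and laminin in medium for which no FGF or EGF is named. BMP4, growth factors and coating therefore cannot be told apart between NSCs and AGES. Primary astrocytes were isolated from wild-type C57BL/6J mice with magnetic beads against ACSA-2, an epitope of the Atp1b2 protein, and 1 isolation pooled the brains of 2 mice. Neonatal mice were 4 to 8 days old (neoAC) and adult mice were 100 to 140 days old (AdAC). Cells were frozen at once (neoAC direct, AdAC direct) or kept in vitro for 7 to 10 days (neoAC CellC, AdAC CellC). The methods state that the olfactory bulb and cerebellum were taken off adult brains for direct isolation and do not say so separately for culture, so region and culture cannot be told apart in adult cells. Per the same methods, neonatal cerebral tissue was dissociated with another kit, without the debris and red blood cell removal used for adult tissue. For neonatal brains the methods do not mention the olfactory bulb. Age, dissociation and brain region therefore cannot be told apart.

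Library totals lay between 27904126 and 37997368 counts. Levels are CPM, depth-scaled counts after TMM normalization, and a group is given by its mean ± SD (n = 4). Counts of 3 in a library correspond to 0.0846 to 0.0997 CPM in the groups. The summed level of 9 astrocyte markers was 14910 to 15630 CPM in AdAC direct, 20010 to 22660 CPM in neoAC direct, 55090 to 60030 CPM in AGES and 6901 to 7943 CPM in neoAC CellC. In AdAC CellC it was only 707 to 1186 CPM, below the 1929 to 2455 CPM of NSCs, although no marker was at 0. In such bulk samples, fewer cells of a type and less RNA per cell cannot be told apart.

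Dlx1 and Dlx2 lie 9426 bp apart on chromosome 2 of GRCm38 (Dlx1 on the plus strand from 71528113 to 71533981, Dlx2 on the minus strand from 71543408 to 71546754) and are transcribed towards each other. Dlx6 (6863334 to 6868568, plus strand) and Dlx5 (6877805 to 6882085, minus strand) face each other in the same way on chromosome 6 with 9236 bp between them. Sp9 (73271925 to 73284706), Gad1 (70553072 to 70602014) and Gad2 (22622205 to 22693874) are also on chromosome 2, Sp8 is on chromosome 12 (118846329 to 118852576) and Dcx is on the X chromosome (143855842 to 143933311). RefSeq start sites with upstream sequence (GRCm38.p6) were matched for 7 of the 9 genes. The 250 bases before the start of Dlx2, Sp8 and Sp9 are shown because these windows hold at most 1 annotated exon base and belong to transcription factors with a common maximum in neoAC CellC. Capitals mark a GC box, GGGCGG on either strand, and the sequences run 5′ to 3′ on the strand of the gene.
Dlx2, chr2:71546755-71547004, minus strand: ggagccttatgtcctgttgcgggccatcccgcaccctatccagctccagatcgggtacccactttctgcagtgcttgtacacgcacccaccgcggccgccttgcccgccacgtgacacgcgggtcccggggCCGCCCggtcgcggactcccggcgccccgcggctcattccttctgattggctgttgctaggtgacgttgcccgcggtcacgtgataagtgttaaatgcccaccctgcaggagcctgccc
Sp8, chr12:118846079-118846328, plus strand: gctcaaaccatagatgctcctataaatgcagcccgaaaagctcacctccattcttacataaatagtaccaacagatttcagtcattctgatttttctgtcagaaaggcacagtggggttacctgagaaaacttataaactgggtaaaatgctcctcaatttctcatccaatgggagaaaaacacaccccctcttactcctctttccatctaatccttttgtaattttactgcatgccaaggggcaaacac
Sp9, chr2:73271676-73271925, plus strand: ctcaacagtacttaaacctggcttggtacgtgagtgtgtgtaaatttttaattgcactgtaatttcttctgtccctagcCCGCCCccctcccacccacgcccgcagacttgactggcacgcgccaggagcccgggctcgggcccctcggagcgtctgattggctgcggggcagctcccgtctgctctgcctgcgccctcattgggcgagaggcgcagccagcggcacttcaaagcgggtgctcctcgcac
Dlx2 and Sp9 each held 1 GC box and Sp8 held none, while 32.7% of all 32851 upstream windows of this length held at least 1. GC content was 66.4% upstream of Dlx2, 62.4% upstream of Sp9 and 40.8% upstream of Sp8. Neither the homeodomain core TAATTA nor the E-box CAGCTG, both of which read the same on either strand and overlap no GC box, occurred in these 3 windows (4.8% and 13.0% of all windows held them). A match or its absence describes these letters only.

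Cultured neonatal astrocytes had the highest mean of 7 of the 9 genes (77.8%), whereas 10.1% of the 19691 genes tested had their highest mean there. Gad1 was highest in NSCs and Gad2 in neoAC direct. For Dlx1, Dlx2, Dlx5, Sp8, Sp9 and Dcx, every neoAC CellC library lay above every other library of the series. The levels of the 2 Gad genes followed other orders, and Dlx6 was close to the detection limit throughout.

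**Figure D1:**
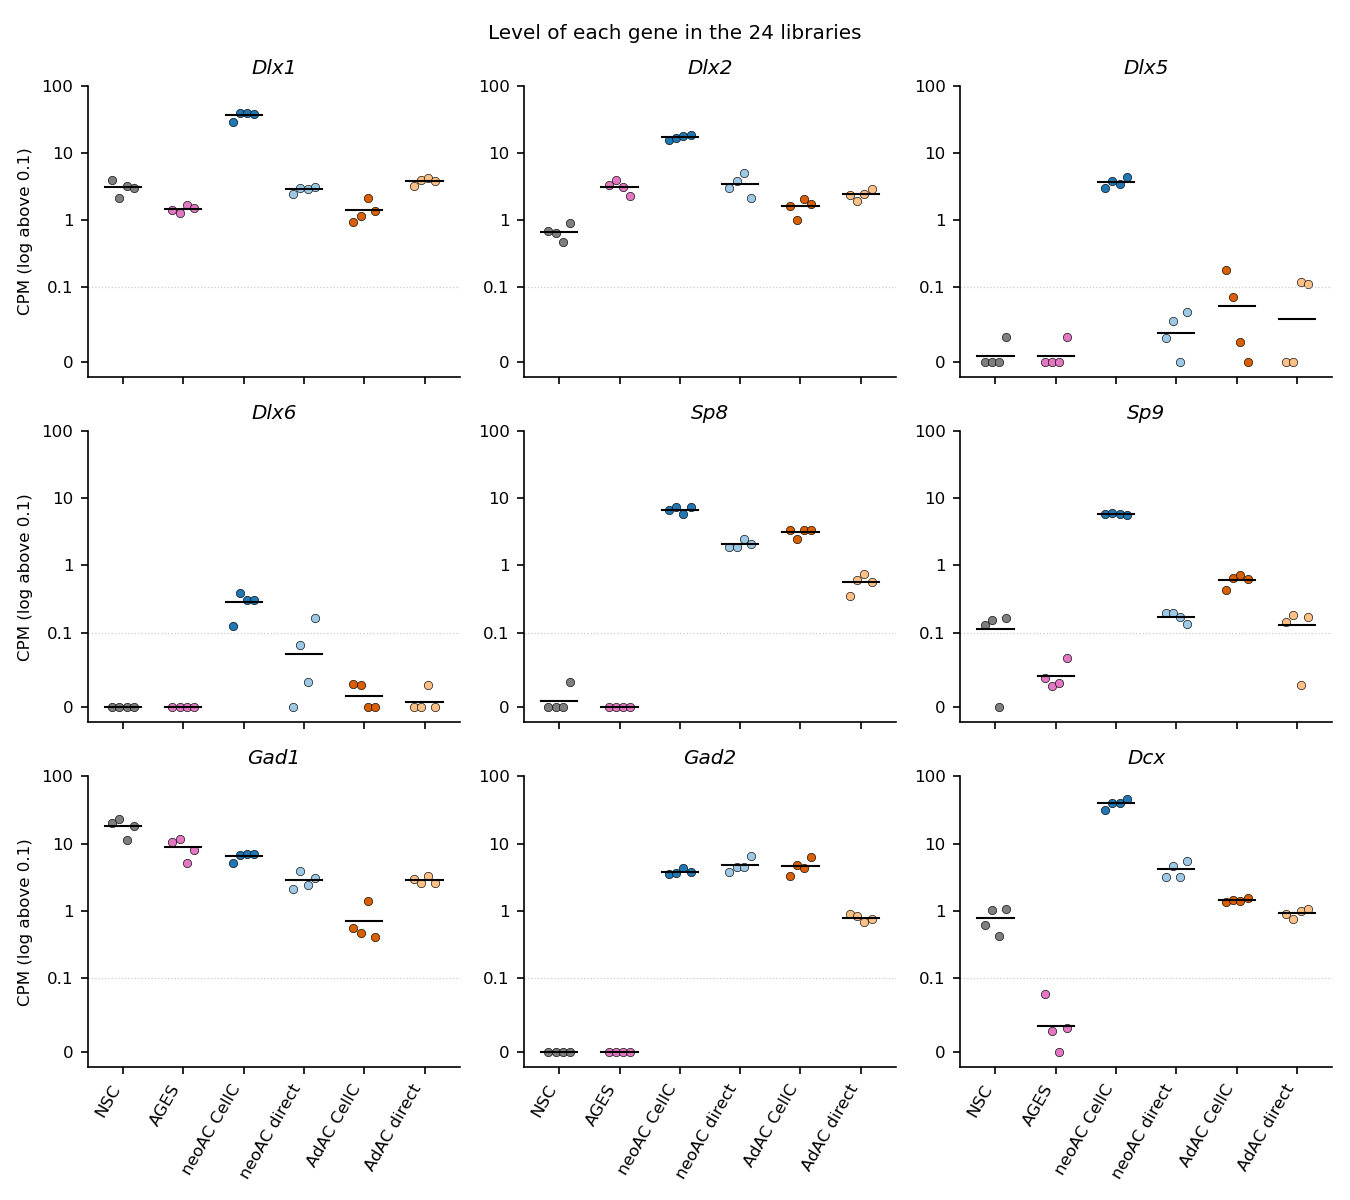
CPM of each gene (vertical axis, linear up to 0.1 CPM and logarithmic above) in the 6 groups (horizontal axis), 1 point per library and a black line at the group mean. The neoAC CellC points top the panels of Dlx1, Dlx2, Dlx5, Sp8, Sp9 and Dcx, 1 neoAC CellC point of Dlx6 lies below the highest neoAC direct point, and the NSC and AGES points of Gad2 are all at 0.

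Among the homeodomain factors, Dlx1 reached 29.5, 39.0, 39.5 and 38.1 CPM in the 4 neoAC CellC libraries, with a mean of 36.5 ± 4.74 CPM. All other groups stayed under 5 CPM. AdAC direct had 3.84 ± 0.472 CPM, NSCs 3.09 ± 0.738 CPM and neoAC direct 2.89 ± 0.293 CPM, and neighbours in this order overlapped. AGES with 1.48 ± 0.182 CPM and AdAC CellC with 1.41 ± 0.510 CPM came last and overlapped each other.

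Dlx2 had 15.9, 16.6, 17.8 and 18.4 CPM in neoAC CellC, a mean of 17.2 ± 1.14 CPM. It was lowest in NSCs, at 0.685, 0.638, 0.478 and 0.903 CPM, below every library of the other groups. In AGES its libraries held 3.32, 3.92, 3.14 and 2.30 CPM, and their range overlapped those of neoAC direct (3.52 ± 1.23 CPM) and AdAC direct (2.44 ± 0.430 CPM). AdAC CellC had 1.64 ± 0.451 CPM. The 2 neighbouring genes thus had different orders outside neoAC CellC. Per kb of exon, the level of Dlx1 divided by that of Dlx2 was 1.76 to 3.598 in the NSC libraries and 0.172 to 0.355 in AGES. The ratio was 0.984 to 1.25 in neoAC CellC, 0.307 to 0.765 in neoAC direct, 0.304 to 0.605 in AdAC CellC and 0.685 to 1.11 in AdAC direct. NSCs were thus the group whose libraries all had more Dlx1 than Dlx2 by this measure and overlapped no other group.

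**Figure D2:**
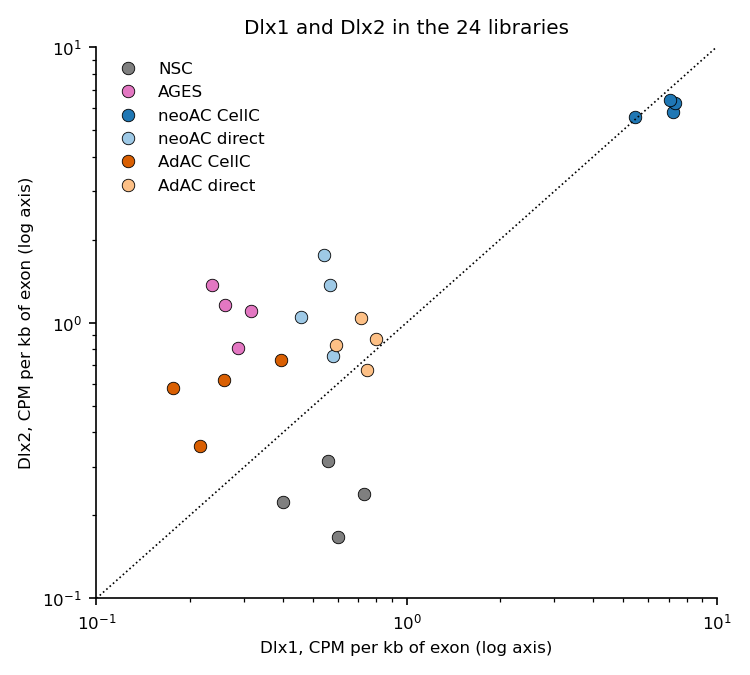
Dlx1 (horizontal) against Dlx2 (vertical) in CPM per kb of exon on log axes, 1 point per library coloured by group, with a dotted line at equal levels. NSC libraries lie below the line, at 1.76 to 3.598 times as much Dlx1 as Dlx2, AGES libraries lie above it, and the 4 neoAC CellC libraries lie near it at the top right.

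Dlx5 was counted 98, 147, 126 and 157 times in the neoAC CellC libraries, which is 3.69 ± 0.548 CPM. NSCs and AGES had 1 count each over 4 libraries. In neoAC direct the libraries held 1, 2, 0 and 2 counts, in AdAC CellC 6, 3, 1 and 0, and in AdAC direct 0, 0, 4 and 4. Dlx6 followed at a far lower level, with 4, 15, 11 and 11 counts in neoAC CellC (0.282 ± 0.113 CPM), 0, 3, 1 and 5 in neoAC direct, 2 in all AdAC CellC libraries, 1 in all AdAC direct libraries and 0 in NSCs and AGES. It did not pass the filter on low counts and was not tested. A count of 0 in a library allows a level of up to about 0.0962 CPM in NSCs and 0.0997 CPM in AGES, for counting error only.

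The zinc finger factor Sp8 had 6.65, 7.31, 5.79 and 7.40 CPM in neoAC CellC (6.79 ± 0.743 CPM) and 3.35, 2.45, 3.43 and 3.38 CPM in AdAC CellC (3.15 ± 0.469 CPM). The range of AdAC CellC touched that of neoAC direct (2.08 ± 0.288 CPM), and AdAC direct lay lower at 0.570 ± 0.162 CPM. NSCs had 1 count of Sp8 in all and AGES had none. Its relative Sp9 had 5.87, 6.03, 5.82 and 5.65 CPM in neoAC CellC (5.84 ± 0.154 CPM), the smallest relative spread of the genes in that group. AdAC CellC came next with 0.602 ± 0.122 CPM, above every library of the remaining groups, whose means lay between 0.0415 CPM in AGES and 0.173 CPM in neoAC direct. Sp8 and Sp9 therefore shared the order of both cultured groups ahead of the directly isolated ones, apart from the overlap of Sp8 between AdAC CellC and neoAC direct.

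Gad1 and Gad2 encode the glutamate decarboxylases that make GABA. Gad1 had 19.98, 23.4, 11.2 and 18.4 CPM in NSCs and 10.6, 11.6, 5.06 and 8.06 CPM in AGES, and these ranges overlapped. It had 6.45 ± 0.855 CPM in neoAC CellC, 2.87 ± 0.334 CPM in AdAC direct and 2.86 ± 0.774 CPM in neoAC direct. AdAC CellC was lowest with 0.553, 0.466, 1.38 and 0.403 CPM. Gad2, in contrast, had 0 counts in all 8 libraries of NSCs and AGES. It was present in all primary groups, at 4.83 ± 1.21 CPM in neoAC direct, 4.63 ± 1.25 CPM in AdAC CellC and 3.81 ± 0.362 CPM in neoAC CellC, with overlapping ranges, and at 0.792 ± 0.0885 CPM in AdAC direct.

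Dcx, the neuroblast gene of the list, had 31.5, 40.7, 39.7 and 46.5 CPM in neoAC CellC, a mean of 39.6 ± 6.20 CPM. It had 4.13 ± 1.14 CPM in neoAC direct, 1.43 ± 0.0883 CPM in AdAC CellC and 0.920 ± 0.141 CPM in AdAC direct, and the last of these overlapped NSCs (0.784 ± 0.320 CPM). AGES had 2, 1, 0 and 1 counts. Per kb of exon, the highest level of the 9 genes in neoAC CellC was that of Dlx1 (6.77 ± 0.878 CPM per kb), followed by Dlx2 (6.01 ± 0.399) and Dcx (3.13 ± 0.490), while in NSCs Gad1 led with 2.39 ± 0.668 CPM per kb. Dcx has a long exonic sequence, so its level per kb is far lower than its CPM.

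Culturing of neonatal astrocytes was compared with their direct isolation. Of the 8 genes tested, 7 were higher in neoAC CellC and none was lower at an edgeR adjusted p under 0.05, where 34.4% of all genes tested were called higher and 31.3% lower. With scaling by library size alone, calls over all genes became 8628 higher and 4468 lower, against 6766 and 6170 with TMM. Since the levels chose the genes, nothing is read from counts of members called, here or in the comparisons below. Dlx5 also passed the filter on low counts only through neoAC CellC, as no other library held more than 6 counts. The log2 fold change was 5.04 for Sp9 (standard error 0.32), 3.66 for Dlx1 (0.19), 3.26 for Dcx (0.20), 2.28 for Dlx2 (0.22), 1.71 for Sp8 (0.20) and 1.17 for Gad1 (0.28). The groups of these 6 genes did not overlap. For Dlx5, whose neoAC direct libraries held at most 2 counts, the ratio of pooled counts was 93.7 with an exact 95% counting interval of 39.9 to 290. Gad2 differed by −0.34 (standard error 0.21), with overlapping groups.

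Adult astrocytes in culture had another pattern. Against AdAC direct, 4 of the 8 genes were called higher and 3 lower (38.8% and 39.2% of all genes). Gad2 (log2 fold change 2.55, standard error 0.23), Sp8 (2.45, 0.23) and Sp9 (2.17, 0.38) were higher in culture without overlap. Dcx was higher by 0.63 (0.25), which was not called without AdAC direct replicate 2 (0.53) or with no filter on low counts (0.526). Gad1 was lower, with a log2 fold change of −2.0 (0.33), and so was Dlx1 with −1.44 (0.20). Dlx2 had −0.57 (0.24), and its groups overlapped. It was no longer called without any of AdAC CellC replicates 1 and 2 and AdAC direct replicates 3 and 4 (−0.57 to −0.39), nor with library-size scaling (−0.50). Dlx5 was within its error at 0.25 (0.82). Dlx1 and Gad1 were thus higher in culture in neonatal cells and lower in adult cells.

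**Figure D3:**
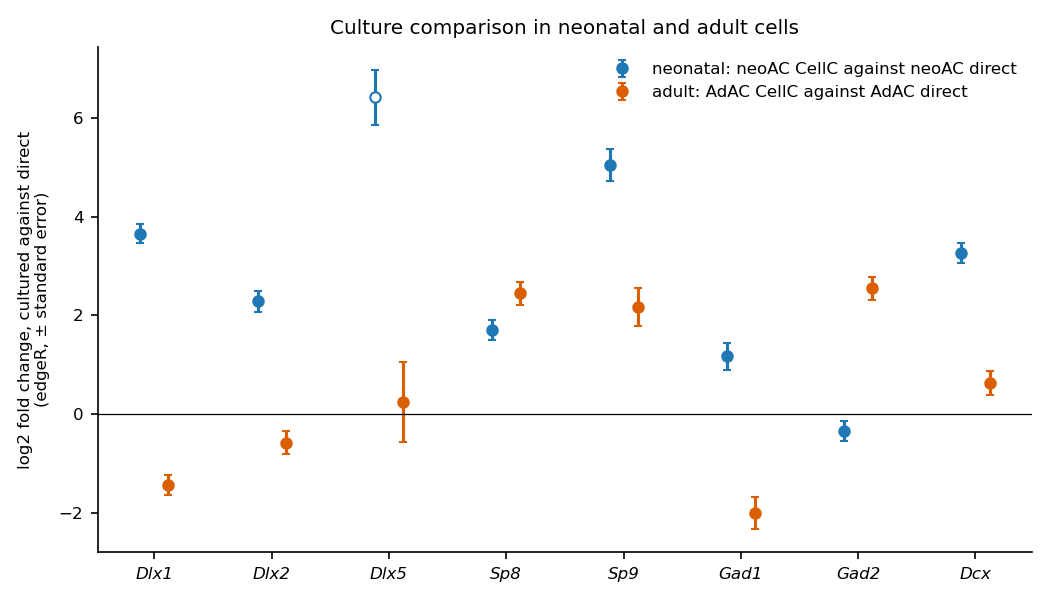
edgeR log2 fold change (vertical axis, ± standard error) of cultured against directly isolated cells for the 8 tested genes, neonatal in blue and adult in orange. The open point of Dlx5 rests on a group with at most 2 counts in a library. Dlx1, Dlx2 and Gad1 lie above 0 in neonatal and below 0 in adult cells, while Gad2 is near 0 in neonatal cells and 2.55 in adult cells.

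Other cell types were followed with marker lists beside these values. From neoAC direct to neoAC CellC, the summed level of 5 ependymal markers, all detected, went from 141 to 207 CPM up to 1419 to 1806 CPM, mostly Foxj1 (115 ± 23.3 and 1241 ± 121 CPM). Of 8 mature neuron markers, 6 in neoAC direct and 7 in neoAC CellC had at least 1 CPM and none was at 0, and their sum was 41.9 to 48.1 and 77.9 to 110 CPM. Within that list the neuronal splicing factor Rbfox3 had 2.06 ± 0.483 and 4.05 ± 0.801 CPM, while the synaptic gene Snap25 had 7.05 ± 1.29 and 2.39 ± 0.264 CPM. The 6 oligodendrocyte precursor markers summed to 620 to 933 and 334 to 774 CPM, and 5 dividing cell markers to 245 to 405 and 670 to 884 CPM. The 4 endothelial markers summed to 57.8 to 239 CPM in neoAC direct, with 1 library (replicate 2) apart from the others, and to 3.66 to 5.95 CPM in neoAC CellC. Without any 1 of the neoAC direct replicates, and likewise without neoAC CellC replicate 1, Dlx6 passed the filter and was called. Its passing was therefore not particular to neoAC direct replicate 2. Dlx6 passed only through neoAC CellC, as no library of another group held more than 5 counts, so nothing is read from that call. In AdAC direct, 6 oligodendrocyte markers summed to 23480 to 26460 CPM and in AdAC CellC to 3861 to 10040 CPM. From AdAC direct to AdAC CellC, the sum of 6 neural stem cell markers went from 734 to 800 up to 5510 to 6615 CPM and that of the dividing cell markers from 9.79 to 12.1 up to 669 to 828 CPM. The ependymal sum went from 1221 to 1411 down to 228 to 322 CPM, and no marker of these 3 lists was at 0. The part of these cell types in the results was not tested.

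Age was compared within each condition. In directly isolated cells, 4 genes were called higher in neonatal astrocytes and none lower (35.0% and 36.4% of all genes): Gad2 by 2.61 (standard error 0.23), Dcx by 2.16 (0.23) and Sp8 by 1.85 (0.23) on the log2 scale without overlap, and Dlx2 by 0.53 (0.23) with overlap. The call of Dlx2 was lost without neoAC direct replicate 2 or 3 or AdAC direct replicate 1, 2 or 3 (0.31 to 0.54). It was also lost with library-size scaling (0.45) and in a fit of these 2 groups alone (0.56). Gad1 differed by 0.00 (0.29) with overlap, and Dlx1 by −0.41 (0.19), which was not called although its groups did not overlap. Without AdAC direct replicate 1, with the DESeq2 test, with library-size scaling, with at least 10 counts in every library or in a fit of these 2 groups alone, Dlx1 was called lower in neonatal cells (−0.49 to −0.38). In cultured cells, 7 genes were called higher in neonatal astrocytes and none lower (28.5% and 35.2% of all genes). The largest log2 fold changes were those of Dlx5 (5.58, standard error 0.50), Dcx (4.79, 0.22) and Dlx1 (4.68, 0.20), followed by Dlx2 (3.38, 0.23), Sp9 (3.27, 0.27), Gad1 (3.17, 0.32) and Sp8 (1.11, 0.19). Gad2 had −0.28 (0.20), with overlapping groups. Leaving out AdAC CellC replicate 1 moved Dlx5 to 6.46, and leaving out AdAC CellC replicate 3 moved Gad1 to 3.76. Dlx6 was 19.7 times as high in neoAC CellC as in AdAC CellC by pooled counts, with a 95% counting interval of 5.11 to 168.

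BMP4 differentiation was followed from NSCs to AGES. Of the 8 genes, 1 was called higher and 3 lower (31.7% and 34.0% of all genes). Dlx2 was higher in AGES by 2.23 on the log2 scale (standard error 0.26), while its neighbour Dlx1 was lower, at −1.06 (0.20), and neither pair of groups overlapped. Gad1 had −1.04 (0.26), with AGES libraries reaching into the range of NSCs. For Dcx the ratio of pooled counts was 23.9 in favour of NSCs, with a counting interval of 9.03 to 89.3, and for Sp9 it was 2.73 (0.928 to 9.68), which was not called, except without NSC replicate 3 or with library-size scaling. Dlx5, Dlx6, Sp8 and Gad2 were at or under 3 counts in every library of both groups and allow no fold.

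AGES were also set against both cultured primary groups, and the AGES libraries serve in both comparisons. Per the methods, primary cells were cultured in AstroMACS medium on poly-L-lysine and laminin, and AGES in N2B27 medium with BMP4 on poly-L-ornithine and laminin. Cell origin, substrain, medium, coating and BMP4 therefore cannot be told apart in these comparisons. Against neoAC CellC, none of the genes was called higher and 7 were called lower (34.1% and 40.5% of all genes). With scaling by library size alone the calls over all genes were 4504 higher and 9822 lower, against 6710 and 7977. Sp8 was at least 68.0-fold and Gad2 at least 38.2-fold higher in neoAC CellC, taking 3 counts per library as the limit for AGES. The ratio of pooled counts was 1212 for Dcx (counting interval 473 to 4449), 451 for Dlx5 (80.7 to 17860) and 142 for Sp9 (60.7 to 439), and the log2 fold change was −4.62 for Dlx1 (standard error 0.20) and −2.43 for Dlx2 (0.22). Gad1 differed by 0.45 (0.27) with overlap, and without AGES replicate 3 it was called higher in AGES (0.64). Against AdAC CellC, 2 genes were called higher in AGES and 5 lower (31.0% and 45.2% of all genes). Those higher were Gad1 by 3.62 (0.32) and Dlx2 by 0.95 (0.24), and Dlx1 differed by 0.06 (0.22). Gad2 was at least 46.4-fold and Sp8 at least 31.6-fold higher in AdAC CellC, and Dcx was 43.4 times as high (counting interval 16.7 to 161). Sp9 was 14.8 times as high (6.08 to 46.7), and Dlx5 8.90 times (1.27 to 386) with overlapping groups. The fitted log2 fold change of Dlx5 here, −2.68, was −1.80 without AdAC CellC replicate 1 and −4.33 without AGES replicate 4, which held the only AGES count. Dlx5 was no longer called without any 1 of AGES replicates 1 to 3 or AdAC CellC replicates 1 and 2. NSCs against neoAC direct gave 1 gene higher and 4 lower (37.5% and 42.5% of all genes): Gad1 was higher in NSCs by 2.67 (0.28), while Dlx2 had −2.38 (0.26) and Dcx −2.39 (0.24). Gad2 was at least 50.2-fold higher in neoAC direct and Sp8 was 258 times as high by pooled counts (counting interval 45.9 to 10230). Dlx1 differed by 0.09 (0.19) with overlap.

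The antisense genes of both Dlx pairs are not among the 9 genes but were named because of them. They passed the filter on low counts through neoAC CellC, so no p-value is given for their rise there. Dlx6os1, a long noncoding RNA on the minus strand of chromosome 6 from 6820189 to 6871592 that spans Dlx6, had 11.6, 15.4, 14.1 and 16.5 CPM in neoAC CellC and at most 0.233 CPM in any other library. Its log2 fold change against neoAC direct was 6.47 (standard error 0.30). In neoAC CellC it was far above Dlx6 also per kb, at 2.78 ± 0.411 against 0.119 ± 0.0474 CPM per kb. Dlx1as, on chromosome 2 from 71516454 to 71537891 opposite to Dlx1, had 1.96 ± 0.205 CPM in neoAC CellC. Its mean was at most 0.171 CPM in any other group, and its log2 fold change against neoAC direct was 4.11 (standard error 0.43). The kit keeps strand, but the counting options listed in the methods name no strand setting, so use of strand is not stated outright. Of the exon bases of Dlx1, 335 (6.2%) are shared with Dlx1as on the opposite strand, and they make up 20.6% of Dlx1as. Other annotated genes overlap 9.5% of the exon bases of Dlx6os1. Likewise 104 bases (4.4%) of Dlx6 overlap Dlx6os2 and 270 bases (5.4%) of Sp9 overlap Cir1, so reads there cannot be assigned with certainty.

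None of the 4 protein-coding genes next to the Dlx pairs had its highest mean in neoAC CellC. Metap1d, a mitochondrial methionine aminopeptidase gene 2919 bp before Dlx1, had 24.5 CPM in neoAC CellC and 44.3 CPM in neoAC direct, and fell by 0.85 in log2 terms (standard error 0.08, edgeR adjusted p = 1.48e-09). Itga6, an integrin gene 198862 bp beyond Dlx2, differed by 0.25 (standard error 0.14, edgeR adjusted p = 0.138). On chromosome 6, Sem1, a proteasome subunit gene, rose by 0.90 (standard error 0.08, edgeR adjusted p = 1.64e-10) and Sdhaf3, an assembly factor of succinate dehydrogenase, fell by 1.12 (standard error 0.15, edgeR adjusted p = 4.13e-07).

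The genes most like each member were ranked by Pearson's r of log2 CPM over the 24 libraries, which share their 6 groups, so r is a description. Dlx1 and Dlx5 were close to Dlx6os1 (r = 0.945 and 0.962). Dlx2 was closest to Shisa8 (0.932), which had 63.0 CPM in neoAC CellC and 3.56 CPM in NSCs, and Dcx was closest to Oxct1 (0.964). Ccno, a regulator of multiciliated cells, was the third gene for Dcx (0.949), with 62.2 CPM in neoAC CellC and 14.6 CPM in neoAC direct. Sp8 was closest to Gfra4 (0.989), Sp9 to Hspb6 (0.964), Dlx6 to Apela (0.924), Gad2 to Ctsc (0.994) and Gad1 to BC064078 (0.936). Between members, r was 0.968 for Sp8 and Gad2, 0.891 for Dlx5 and Sp9, 0.743 for Dlx1 and Dlx2 and −0.713 for Gad1 and Gad2.

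Of 81 further genes in 5 lists on the ventral forebrain and neuronal lineages, 78 were tested, and 19 rose and 41 fell from neoAC direct to neoAC CellC, where 34.4% of all genes were called higher and 31.3% lower. Among 8 ventral forebrain progenitor factors, which specify the regions where interneurons are born, none rose and 3 fell (median log2 fold change −0.20, against 0.04 over all genes). Gsx2, which acts upstream of Dlx genes, had 1.87, 1.65, 2.69 and 1.86 CPM in neoAC CellC and 2.57, 2.46, 2.28 and 1.23 CPM in neoAC direct, with overlap (edgeR adjusted p = 0.799). Of 20 tested interneuron and striatal neuron factors, 4 rose and 13 fell (median −0.58, or −0.47 without Isl1, which allows no fold here). Npas1, a factor of cortical and pallidal inhibitory neurons, rose by 3.48 (standard error 0.36, edgeR adjusted p = 5.41e-09), with 16.3, 13.8, 17.2 and 21.4 CPM in neoAC CellC and at most 2.79 CPM in any other library. Satb1, a chromatin organiser of maturing interneurons, fell by 1.72 (standard error 0.12, edgeR adjusted p = 6.00e-12).

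Of 14 tested interneuron transmitter and subtype genes, 5 rose and 7 fell in neonatal culture (median −0.80). Pvalb, which encodes the calcium buffer parvalbumin, rose by 4.87 (standard error 0.30, edgeR adjusted p = 4.17e-13) and Calb1, which encodes calbindin, by 3.34 (standard error 0.23, edgeR adjusted p = 3.18e-12). Their means in neoAC CellC, 5.922 CPM for Pvalb and 5.617 CPM for Calb1, were below those in AdAC direct, 9.095 and 33.99 CPM. Reln, the gene of the secreted protein reelin, had 452 CPM in neoAC direct and 29.5 CPM in neoAC CellC and fell by 3.94 (standard error 0.21, edgeR adjusted p = 9.99e-14). Of 24 young neuron and migration genes, 9 rose and 10 fell (median −0.19). St8sia2, the enzyme that adds polysialic acid to NCAM, reached 193 ± 24.6 CPM and rose by 3.76 (standard error 0.20, edgeR adjusted p = 5.70e-14), and Igfbpl1 by 3.33 (standard error 0.17, edgeR adjusted p = 1.23e-14). Dclk1, a relative of Dcx, fell by 2.95 (standard error 0.17, edgeR adjusted p = 1.82e-13) and so did Dclk2, by 2.46 (standard error 0.10, edgeR adjusted p = 6.07e-17). Of 12 tested excitatory neuron lineage genes, 1 rose and 8 fell (median −0.78), and Slc17a6, a vesicular glutamate transporter gene, fell by 4.82 (standard error 0.51, edgeR adjusted p = 9.09e-08).

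In adult culture 28 of the 78 genes rose and 34 fell, near the 38.8% and 39.2% of all genes. Nkx2-1, which marks progenitors of the medial ganglionic eminence, had 3.91 ± 0.481 CPM in AdAC direct and 30.7 ± 3.64 CPM in AdAC CellC and rose by 2.97 (standard error 0.16, edgeR adjusted p = 7.69e-15), while in neonatal culture it had 2.83 ± 0.318 CPM. Igfbpl1 rose by 5.54 (standard error 0.20, edgeR adjusted p = 7.73e-18), and Isl1, a factor of striatal projection neurons, was 39.2 times as high in culture by pooled counts (counting interval 16.6 to 122). Calb1 fell by 2.79 (standard error 0.19, edgeR adjusted p = 6.75e-13) and Erbb4, a receptor of migrating interneurons, by 2.80 (standard error 0.14, edgeR adjusted p = 1.45e-15). The median was 0.05 for the progenitor factors, 0.23 for the interneuron and striatal neuron factors, −1.39 for the transmitter and subtype genes, 0.07 for the young neuron genes and −1.18 for the excitatory genes, against 0.00 over all genes. The culture effects differed between ages for 50 of the 78 genes, with 18 higher and 32 lower in neonatal cells, while 33.2% of all genes were called higher and 35.4% lower.

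**Figure D4:**
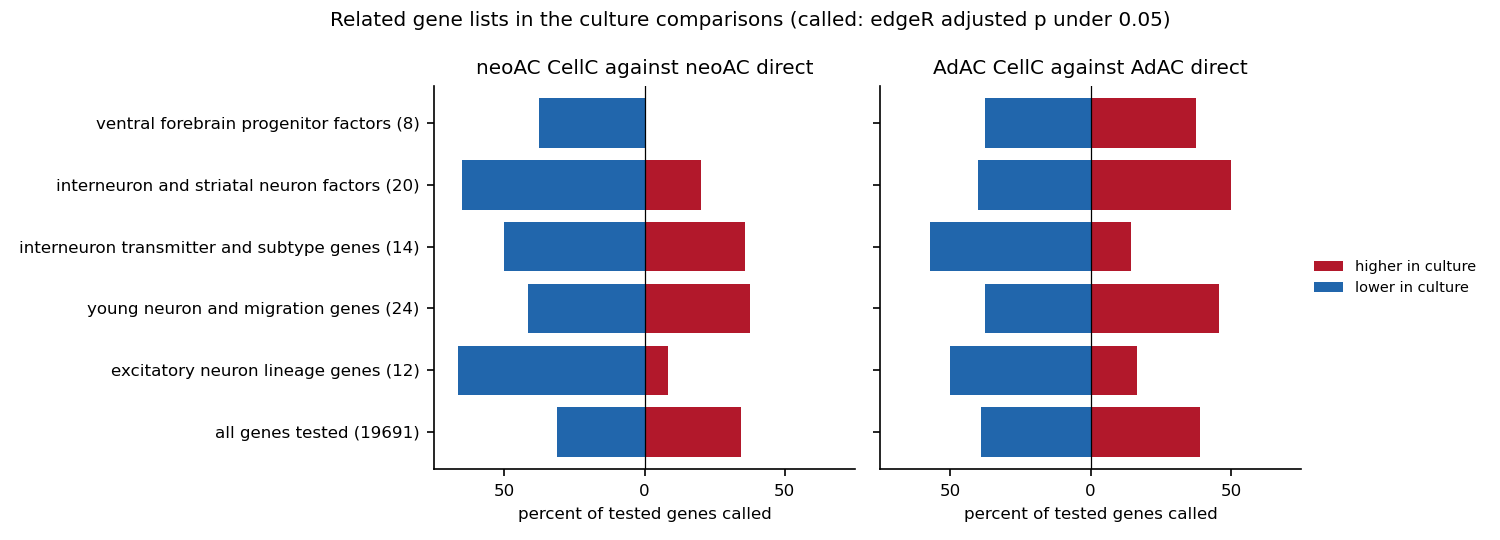
Percent of the tested genes of each list (number in parentheses) that were called higher (red, right) or lower (blue, left) in cultured than in directly isolated cells at an edgeR adjusted p under 0.05, in neonatal (left panel) and adult cells (right panel). In neonatal culture, none of the 8 progenitor factors was called higher, and among all genes 34.4% were higher and 31.3% lower.

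From NSCs to AGES, 27 of the 78 genes rose and 15 fell (31.7% and 34.0% of all genes). The chemokine receptor Cxcr4 rose by 5.46 (standard error 0.21, edgeR adjusted p = 3.42e-17). Olig2 fell by 3.80 (standard error 0.25, edgeR adjusted p = 2.66e-12). Vax1 and Gsx2 had 0 counts in all NSC and AGES libraries, as did Gad2, and Vax1 was at least 43.7-fold higher in neoAC direct than in NSCs. Of the 78 genes, 44 were higher and 18 lower in neoAC direct than in AdAC direct (35.0% and 36.4% of all genes), and 39 were higher and 21 lower in neoAC CellC than in AdAC CellC (28.5% and 35.2%). AGES were higher for 17 and lower for 49 genes against neoAC CellC (34.1% and 40.5% of all genes) and higher for 21 and lower for 45 against AdAC CellC (31.0% and 45.2%). NSCs were higher for 13 and lower for 62 against neoAC direct (37.5% and 42.5%).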

How the data were processed

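RNA-seq of 24 libraries in 6 groups of 4 was analysed. Per the labels and the study's methods, the authors made stranded libraries of polyadenylated RNA, used bcl2fastq 2.20, aligned reads to GRCm38 with STAR 2.7.3a and counted exons with featureCounts, using Gencode vM12. Raw counts per gene, not normalized, are what the authors deposited. The featureCounts options listed in the methods name no strand setting, and use of strand in counting is not stated outright. Symbols and positions came from Gencode vM21 (99.31% of genes found), so exon overlaps are those of that version.

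Counts were analysed with edgeR 4.0.16 in R 4.3.3: filterByExpr (19691 genes), TMM, and robust quasi-likelihood F tests in 1 fit of 6 groups, two-sided, with Benjamini-Hochberg adjustment over all genes and calls at an adjusted p under 0.05. A standard error is |log2 fold change| over the root of F. CPM are TMM-scaled; log2 CPM used a prior count of 2. For a group at 0, folds were set against 3 counts per library. For groups at or under 3 counts in every library, pooled counts were compared with an exact binomial 95% interval, which covers counting error only.

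The 9 members, the gene lists and marker lists were chosen with earlier results of these data known. Named genes are the members, the antisense genes and neighbours of the Dlx pairs, genes ranked by r, markers, and per list and comparison up to 2 genes with the highest and 2 with the lowest log2 fold change among called, non-overlapping genes of at least 1 CPM. Gsx2 and Vax1 are named outside that rule in some comparisons, chosen after their values were seen. Of the 3 genes ranked by r, not all are printed, and some genes that these rules name are not reported here, though list counts and medians include them.

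Samples were grouped by their titles. Replicates were separate isolations or cultures; no 2 libraries of a group agreed within sampling noise (chi-square per degree of freedom at least 6.02). Alternatives were DESeq2 1.42.0 size factors, library size alone, no filter, a minimum of 10 counts throughout, DESeq2's own test, calls limited to changes over 1 in log2, a fit of the 2 groups alone (also with a replicate block), and leaving out each replicate. On simulated data for neoAC CellC against neoAC direct (17399 genes, 200 changed), edgeR recovered 95 of the 2-fold and 95 of the 4-fold changes with 11 false calls. The simulation used the same dispersion for every gene and few changed genes, whereas 34.4% and 31.3% of genes were called higher and lower in the data. It therefore does not measure recovery in these data.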

Additional observations from a re-analysis of the deposited data

Results flagged for a closer look

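Members and antisense genes were searched for a library far from the other 3 of its group, by a criterion that chance meets in about 1 of 20 groups. Of 66 groups, 47 were searched, since the others had 3 counts or fewer in every library, and 4 stood out. In neoAC CellC, replicate 1 was low for Dlx1 (29.5 CPM) and Gad1 (5.18 CPM), and it also had the highest sum of oligodendrocyte precursor markers of that group (774 CPM). Sp8 was low in AdAC CellC replicate 2 (2.45 CPM), and Gad1 was high in AdAC CellC replicate 3 (1.38 CPM).

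Some genes went opposite ways in culture at the 2 ages. Dlx1 had log2 fold changes of 3.66 in neonatal and −1.44 in adult cells, and Gad1 had 1.17 and −2.0, each with every cultured library on one side of the directly isolated ones. For these members the difference is not given a test, because they were chosen with their levels known. For genes of the related lists the difference between the culture effects (neonatal minus adult, log2 scale) was tested with edgeR. It was 6.41 for Pvalb and 6.13 for Calb1, which were higher in neonatal and lower in adult culture. Dlx1as (7.34) and Dlx6os1 (8.13) went the same way. No test is read for these antisense genes, since they passed the filter on low counts through neoAC CellC. For Dlx1as and Dlx6os1 these are fitted values and no bounds, since every AdAC CellC library held at most 3 counts: by pooled counts AdAC direct was 11.6 times (95% counting interval 2.85 to 102) and 3.38 times (1.18 to 11.8) as high as AdAC CellC. Among the related genes, the difference was −3.10 for Maf and −5.01 for Cck, which were lower in neonatal and higher in adult culture.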

How the results depend on the processing

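No called result changed direction under any alternative run. With at least 10 counts in every library, 11977 genes were tested, among them only 3 members (Dlx1, Dlx2 and Gad1). Counts of members called could therefore not exceed 3, and nothing is read from them. In neoAC direct against AdAC direct, Dlx2 stayed called and Dlx1 gained its call. Related genes called were then 31, 29, 32, 28, 30, 31, 33 and 25 for adult culture, neonatal culture, age in direct cells, age in cultured cells, AGES against neoAC CellC, AGES against AdAC CellC, NSC against neoAC direct and the difference of culture effects, because fewer genes were tested. An absolute log2 fold change over 1 left 27 related genes between AGES and NSC, against 42. Shares of all genes called under these alternatives are not given here, so nothing is read from these counts.

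Library-size scaling moved the median over all genes from 0.04 to 0.27 in neonatal culture, from −0.07 to −0.37 for AGES against neoAC CellC and from −0.23 to −0.44 for AGES against AdAC CellC, and DESeq2 size factors moved it from −0.11 to −0.25 for NSC against neoAC direct. Among single genes, Dlx6os1 in adult culture was no longer called without AdAC CellC replicate 4 (−1.28) or AdAC direct replicate 3 (−1.28). Without AdAC CellC replicate 3, Gad1 in adult culture had −2.57. For Dlx5, Dlx6 and Sp9 outside neoAC CellC, depth limits what can be said.

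Replicate numbers are shared between groups, but same-numbered libraries did not deviate together (correlations between −0.095 and 0.106), and at most 3 of 4 correlated best with their own number. A replicate block called 7 members and 58 related genes in neonatal culture and 7 and 59 in adult culture. In the main fit without the block, 34.4% of all genes were called higher and 31.3% lower in neonatal culture, and 38.8% and 39.2% in adult culture. Shares of all genes called with the block are not given here, so nothing is read from these counts. In neoAC direct against AdAC direct, the fit of these 2 groups alone called Dlx1 (−0.38) and not Dlx2 (0.56), and with the replicate block it did the same (−0.38 and 0.52).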
